A study of Homo sapiens with 15 samples.

Results

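The 7 human APOBEC3 genes (APOBEC3A, B, C, D, F, G and H) were followed through a dose series of the RNA-binding protein RBM47 in brain metastatic breast cancer cells. They were taken by name from a table of 23368 genes. The cells were 3 single-cell clones in which the antibiotic doxycycline switches on an RBM47 transgene. WT6 and WT10 cells carried wild type RBM47, and MUT3 cells carried the frameshift mutant RBM47-I281fs. The doses of doxycycline were 0 (untreated), 1, 2.5, 5 and 25 ng/ml in every clone. Each of the 15 conditions was sequenced once, so none has a replicate. The labels name MDA231, a triple negative breast cancer line, as the parent of all 3 clones, whereas the study's methods derive WT6 from CN34-BrM2 and WT10 and MUT3 from MDA231-BrM2. With a single clone per transgene and line, what belongs to a clone and what belongs to its transgene or line cannot be told apart in a comparison of levels.

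APOBEC3 proteins are cytidine deaminases, which turn cytosine into uracil in single-stranded DNA. They defend cells against retroviruses and mobile elements, and APOBEC3A and APOBEC3B are also known as sources of C-to-T and C-to-G mutations in tumours, breast cancer among them. Their relative APOBEC1 edits cytosine in the apolipoprotein B mRNA, a reaction in which RBM47 is a known cofactor. Each protein carries a zinc-binding deaminase motif once or in tandem, with the catalytic activity usually in the last copy.

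The 7 genes lie side by side on the plus strand of chromosome 22 (hg19), from APOBEC3A at chr22:39348746-39359189 to APOBEC3H at chr22:39493229-39500072, a span of 151 kb. In GENCODE release 44 on hg19, the coding sequences of APOBEC3A, C and H held 1 zinc-binding motif and those of APOBEC3B, D, F and G held 2. The coding stretch of the last motif is shown for 5 members because the recent duplications within the family decide which reads can be told apart. It runs from the codon of the zinc-binding histidine to that of the last zinc-binding cysteine, 111 bases in APOBEC3B and 105 in the others, and lies within a single coding exon in each gene. Capitals mark the codons of the histidine, the catalytic glutamate and both cysteines.
APOBEC3B, exon 6, chr22:39387370-39387480, plus strand: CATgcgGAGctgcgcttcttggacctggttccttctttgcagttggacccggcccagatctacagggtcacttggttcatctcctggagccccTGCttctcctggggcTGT
APOBEC3C, exon 3, chr22:39413792-39413896, plus strand: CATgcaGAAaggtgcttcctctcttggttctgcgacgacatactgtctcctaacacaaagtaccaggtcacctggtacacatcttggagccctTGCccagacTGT
APOBEC3D, exon 6, chr22:39427720-39427824, plus strand: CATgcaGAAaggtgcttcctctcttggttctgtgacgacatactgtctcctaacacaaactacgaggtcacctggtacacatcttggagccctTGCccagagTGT
APOBEC3G, exon 6, chr22:39482317-39482421, plus strand: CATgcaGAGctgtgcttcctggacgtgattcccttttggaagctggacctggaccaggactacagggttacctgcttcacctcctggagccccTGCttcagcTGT
APOBEC3H, exon 3, chr22:39497251-39497355, plus strand: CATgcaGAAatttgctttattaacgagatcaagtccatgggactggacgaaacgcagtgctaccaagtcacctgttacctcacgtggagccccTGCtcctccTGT
The APOBEC3A stretch was identical to that of APOBEC3B over all 111 bases, and the APOBEC3F stretch was identical to that of APOBEC3D over all 105. APOBEC3C matched APOBEC3D at 101 of 105 bases, and APOBEC3G matched APOBEC3D at 59. HTSeq, the counter that was used, leaves out reads that align equally well to several places, so counts of these genes rest on the parts in which they differ. Of all 75-base stretches of a member's transcript, the length of the reads, 21.1% of those of APOBEC3A and 26.8% of those of APOBEC3B also occurred in another gene. The shares were 0.272% for APOBEC3C, 7.98% for APOBEC3F, 9.66% for APOBEC3G and 0% for APOBEC3H. For APOBEC3D the share was 85.7%, mostly through a readthrough gene model of GENCODE that overlaps APOBEC3C and APOBEC3D. How the annotation used for the counts treated that model is not given in the sources used here, so the levels of APOBEC3C and APOBEC3D are uncertain in this respect. APOBEC3B is overlapped on the other strand by APOBEC3B-AS1, and whether the libraries kept the strand is not stated either.

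The values are normalized counts, the reads on a gene divided by the DESeq size factor of the library. Between 14955172 and 44771871 reads fell on genes in each library (median 18152381), and a floor of 3 reads corresponded to normalized counts of 1.19 to 4.09. RBM47 itself rose from 258 to 10425 in WT6, from 168 to 19877 in WT10 and from 73.8 to 22084 in MUT3 between the untreated and the 25 ng/ml library, and at 5 ng/ml it stood at 8134 in WT10 and 949 in MUT3. In WT6 it did not keep the order of the doses, with 3137, 8094 and 3966 at 1, 2.5 and 5 ng/ml. These counts are of mRNA, and the study found little of the mutant protein although its mRNA was abundant. The epithelial keratin KRT8 (8159 or more), vimentin (VIM) and CD44 were abundant in every library and ESR1 stayed at or below 11.97, whereas ERBB2 was at 1018 or more. In WT6 at 5 and 25 ng/ml the change from the untreated library followed transcript length, with a median log2 change of 0.60 and 0.58 in the quintile of genes with the shortest transcripts and of -0.41 and -0.46 in that with the longest. In every other library these medians lay between -0.08 and 0.06. APOBEC3B, C, D, F and G stood at the 16.4, 38.1, 35.7, 67.4 and 15.9 percentiles of length. Which of them passed in WT6 is therefore also given with this trend removed.

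**Figure D1:**
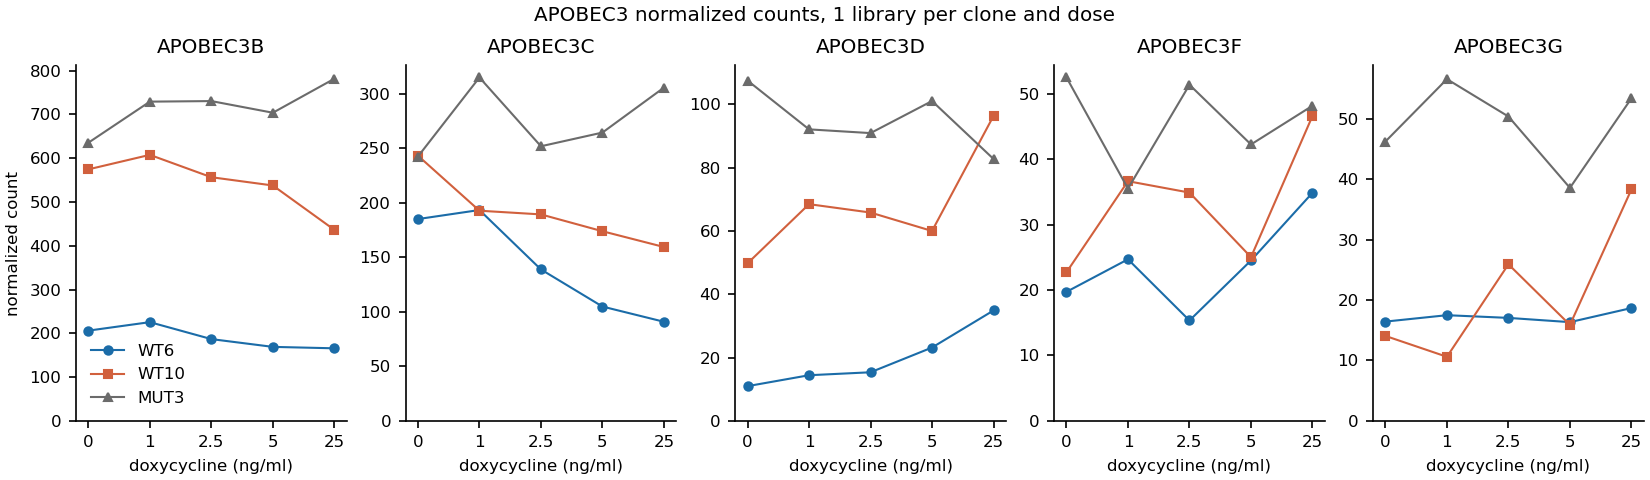
Normalized counts (y axes, linear, a different range in each panel) of the 5 APOBEC3 genes with a mean of at least 10 in every clone, against doxycycline in ng/ml (x axes, doses evenly spaced), with 1 point per library and lines joining the doses of a clone. APOBEC3B and APOBEC3C fell and APOBEC3D rose from the untreated to the 25 ng/ml library in WT6 and WT10, and each went the other way in MUT3.

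APOBEC3B, which works in the nucleus, was the most abundant member. Its normalized count in WT6 was 206, 225, 187, 169 and 166 at 0, 1, 2.5, 5 and 25 ng/ml. In WT10 it was 574, 608, 557, 538 and 436, and in MUT3 it was 635, 729, 730.4, 704 and 781.5. The ranges of the 3 clones did not overlap, and both wild type clones had their lowest value at 25 ng/ml where MUT3 had its highest. The ratio of the 25 ng/ml to the untreated library was 0.804 in WT6 (95% counting interval 0.639 to 1.01), 0.759 in WT10 (0.667 to 0.865) and 1.23 in MUT3 (1.10 to 1.38). Such an exact binomial interval covers counting error only, not the variation between cultures.

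APOBEC3A, its nearest relative and a potent mutator of DNA, was close to absent. A total of 6 reads was counted over the 15 libraries, with at most 2 in a library and 0 in all libraries of WT6. APOBEC3H, a restriction factor of retroviruses, had 3 reads in all, in the WT6 libraries at 1, 5 and 25 ng/ml. Both genes were at or below the floor of 3 reads in every library, so no change in them was detectable at this depth.

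APOBEC3C, a member with a single deaminase domain, was at normalized counts of 185, 194, 139, 105 and 90.9 over the doses in WT6. In WT10 the counts were 243, 193, 189, 174 and 159.6, and in MUT3 they were 243, 315, 252, 265 and 306. WT10 and MUT3 thus began at the same level untreated and were separate at every dose, with WT10 lower. The ratio of 25 ng/ml to untreated was 0.491 (0.368 to 0.650) in WT6, 0.656 (0.531 to 0.808) in WT10 and 1.26 (1.05 to 1.52) in MUT3.

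APOBEC3D, APOBEC3F and APOBEC3G restrict retroviruses by entering the virus particle, and were less abundant. APOBEC3D was at 10.96, 14.4, 15.3, 23.2 and 34.9 over the doses in WT6, which rest on 10 to 28 reads. It was at 49.8, 68.5, 65.8, 60.0 and 96.4 in WT10 and at 108, 92.1, 90.9, 101 and 82.8 in MUT3. All treated libraries lay above the untreated one in both wild type clones and below it in MUT3. The ratio of 25 ng/ml to untreated was 3.18 (1.501 to 7.34) in WT6, 1.94 (1.35 to 2.82) in WT10 and 0.770 (0.560 to 1.06) in MUT3.

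APOBEC3F was at 19.7, 24.7, 15.3, 24.5 and 34.9 in WT6, at 22.7, 36.6, 34.9, 25.0 and 46.6 in WT10 and at 52.5, 35.5, 51.4, 42.3 and 48.2 in MUT3. Its values had no steady order with dose, and the highest count of both wild type clones was at 25 ng/ml. APOBEC3G was at 16.4, 17.5, 17.1, 16.3 and 18.7 in WT6, at 14.1, 10.6, 25.9, 15.9 and 38.3 in WT10 and at 46.3, 56.6, 50.4, 38.6 and 53.4 in MUT3. It was nearly level in WT6, spread widely in WT10, where it rests on 11 to 40 reads, and lay above every library of both wild type clones in MUT3. The closest values were 38.6 in MUT3 at 5 ng/ml and 38.3 in WT10 at 25 ng/ml, where 1 read was worth 0.919 and 1.04.

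The question of the dose series was whether mRNA levels follow the dose of RBM47, with the wild type and not with the mutant transgene. It was tested by fitting log2(normalized count + 1) with limma, as the slope of each clone on log2(dose + 1). The dose is that of doxycycline, whose order the RBM47 count did not keep in WT6. The fit held 12644 genes whose mean was at least 10 in each clone. The 5 members in the figure entered the fit and APOBEC3A and APOBEC3H did not. Slopes are log2 changes per unit of log2(dose + 1), with their standard errors, and adjusted p-values are Benjamini-Hochberg values over all 12644 genes. The spread behind them is that of single libraries around the dose lines of the 3 clones.

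In WT6, APOBEC3C fell with dose (slope -0.25 ± 0.054, adjusted p = 0.00116) and APOBEC3D rose (0.34 ± 0.074, adjusted p = 0.00129). These were 2 of the 5 members tested, in a clone in which 57.5% of all tested genes passed. APOBEC3B (-0.09 ± 0.038, adjusted p = 0.0581), APOBEC3F (0.17 ± 0.094, adjusted p = 0.131) and APOBEC3G (0.03 ± 0.098, adjusted p = 0.812) did not pass. With trends of length and GC content removed, APOBEC3C and APOBEC3D still passed, in a fit in which 7102 of all 12116 genes did. APOBEC3B (-0.21, adjusted p = 0.00244) and APOBEC3F (0.23, adjusted p = 0.0497) passed there as well, and APOBEC3G did not. Without the WT6 libraries at 5 and 25 ng/ml neither APOBEC3C (-0.21, adjusted p = 0.437) nor APOBEC3D (0.25, adjusted p = 0.699) passed, and without the 25 ng/ml library alone APOBEC3D did not (0.37, adjusted p = 0.0787).

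In WT10, APOBEC3B fell (-0.09 ± 0.029, adjusted p = 0.0366), whereas APOBEC3D (0.17 ± 0.050, adjusted p = 0.0248) and APOBEC3G (0.33 ± 0.090, adjusted p = 0.0185) rose. These were 3 of the 5 members, against 20.0% of all tested genes. APOBEC3C (-0.12 ± 0.047, adjusted p = 0.0821) and APOBEC3F (0.16 ± 0.085, adjusted p = 0.208) did not pass. The APOBEC3B call was not made by edgeR (-0.09, adjusted p = 0.0528), nor the APOBEC3D call by DESeq2 (0.17, adjusted p = 0.0682). All 3 calls rest on the WT10 library at 25 ng/ml, without which the slopes were -0.05 for APOBEC3B, 0.09 for APOBEC3D and 0.19 for APOBEC3G, with adjusted p-values of 0.711, 0.693 and 0.667. The APOBEC3D call was also lost without the untreated library (0.15, adjusted p = 0.120), the APOBEC3G call without that at 1 ng/ml (0.28, adjusted p = 0.0642), and the APOBEC3B call without WT10 at 1 or 2.5 ng/ml or MUT3 at 2.5 or 25 ng/ml (-0.09 or -0.08, adjusted p of 0.0514 to 0.0972). APOBEC3C passed without WT6 at 5 ng/ml (-0.12, adjusted p = 0.0411).

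In MUT3, 0 of the 5 members passed limma's test and 0.0% of all genes did (295 of 12644 at an unadjusted p under 0.05, none of them a member; edgeR and DESeq2 also called 0 members). The slopes ran from -0.06 ± 0.046 for APOBEC3D to 0.05 ± 0.028 for APOBEC3B. The difference between the slopes of WT10 and MUT3 passed for none of the 5 members, against 5.62% of all genes. It was -0.14 ± 0.040 for APOBEC3B (adjusted p = 0.0507), -0.17 ± 0.062 for APOBEC3C (adjusted p = 0.126) and 0.23 ± 0.067 for APOBEC3D (adjusted p = 0.0560). For APOBEC3F it was 0.15 ± 0.11 (adjusted p = 0.471), and for APOBEC3G it was 0.32 ± 0.11 (adjusted p = 0.107). With limma's unadjusted p, 4 of the 5 were under 0.05, the exception being APOBEC3F, against 2824 of all 12644 genes. DESeq2 called 1 member, APOBEC3B (adjusted p = 0.0378). Without the WT6 libraries at 5 and 25 ng/ml APOBEC3B, C and D passed with the same differences, in a fit in which 3059 of 12644 genes did. Of single libraries, leaving out WT6 at 2.5, 5 or 25 ng/ml or WT10 untreated let APOBEC3B pass (adjusted p of 0.0143 to 0.0430), and leaving out WT6 at 5 or 25 ng/ml or WT10 at 5 ng/ml let APOBEC3D pass (0.0251 to 0.04997).

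The slopes of both wild type clones differed from each other for none of the 5 members in limma, edgeR or DESeq2, against 14.4% of all genes in limma. The differences, WT6 minus WT10, ran from -0.30 ± 0.13 for APOBEC3G (adjusted p = 0.124, the only member with an unadjusted p under 0.05) to 0.17 ± 0.089 for APOBEC3D (adjusted p = 0.179). Limma's unadjusted p was under 0.05 for 4393 of all 12644 genes. The 95% interval of the APOBEC3B difference was -0.10 to 0.11, which bounds how far its slopes in WT6 and WT10 may lie apart.

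**Figure D2:**
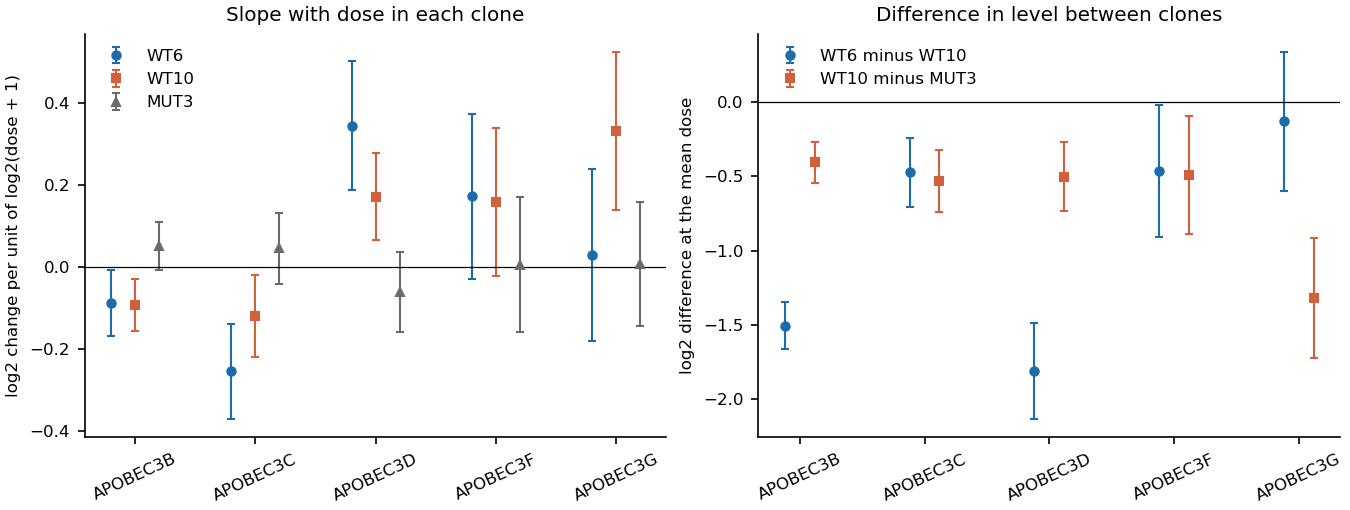
Left, slope of each tested APOBEC3 gene in WT6, WT10 and MUT3 (y axis, log2 change per unit of log2(dose + 1)); right, difference in level between clones (y axis, log2 at the mean dose). Points are limma estimates and bars their 95% confidence intervals; in MUT3 every interval of a slope includes 0, and every WT10 minus MUT3 level lies below 0.

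Levels were compared between the clones. At the mean of log2(dose + 1), APOBEC3D was 0.285 times (log2 -1.81 ± 0.15, adjusted p = 2.53e-08) and APOBEC3B 0.352 times (log2 -1.51 ± 0.075, adjusted p = 6.25e-11) as high in WT6 as in WT10. APOBEC3C was 0.721 times as high (log2 -0.47 ± 0.11, adjusted p = 0.00110), so that 3 of the 5 members were lower in WT6, against 36.9% of all genes. APOBEC3F (log2 -0.46 ± 0.21, adjusted p = 0.0547) and APOBEC3G (log2 -0.13 ± 0.22, adjusted p = 0.601) did not pass. The APOBEC3C difference did not pass without the WT6 libraries at 5 and 25 ng/ml (log2 -0.37, adjusted p = 0.0737) or with the log2 RBM47 count in place of the dose (log2 -0.38, adjusted p = 0.0541). APOBEC3F passed without WT6 at 1 ng/ml, WT10 at 5 ng/ml or MUT3 at 1 ng/ml (adjusted p of 0.0212 to 0.0488), and also with edgeR, TMM scaling, no precision weights or linear dose (log2 -0.46 to -0.50, adjusted p of 0.0396 to 0.0486).

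Between the clones of the same line, all 5 tested members were lower at the mean dose in WT10 than in MUT3, against 25.3% of all genes lower. APOBEC3G differed most, at 0.401 times the MUT3 level (log2 -1.32 ± 0.19, adjusted p = 4.05e-05). APOBEC3B was at 0.755 times (log2 -0.41 ± 0.064, adjusted p = 9.37e-05), APOBEC3C at 0.693 times (log2 -0.53 ± 0.098, adjusted p = 0.000385) and APOBEC3D at 0.706 times (log2 -0.50 ± 0.11, adjusted p = 0.00140). APOBEC3F was at 0.711 times (log2 -0.49 ± 0.19, adjusted p = 0.0403), a call that held in 8 of 15 fits that left out 1 library each and was lost without WT10 at 0, 5 or 25 ng/ml or MUT3 at 0, 2.5, 5 or 25 ng/ml (adjusted p up to 0.151). It was not made by DESeq2 (adjusted p = 0.0511), nor with no precision weights (adjusted p = 0.0540), no filter on low values (adjusted p = 0.0537) or the log2 RBM47 count in place of the dose (adjusted p = 0.0926). With libraries of the same dose as a block (clone and dose as factors), the differences of APOBEC3D (log2 -0.46, adjusted p = 0.127) and APOBEC3F (log2 -0.46, adjusted p = 0.118) did not pass and the other 3 did. These differences hold at the mean dose: at 25 ng/ml the APOBEC3D count was higher in WT10 (96.4) than in MUT3 (82.8). In bulk RNA, fewer cells that express a gene and less of its RNA per cell cannot be told apart.

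Levels of different genes were compared per kb of transcript. The median of APOBEC3B over the 5 doses was 117 per kb in WT6, 350 in WT10 and 459 in MUT3, and that of APOBEC3C was 52.6, 71.7 and 100.1. APOBEC3B made up 59.2% to 61.7% of the summed family level in WT6, 67.1% to 76.7% in WT10 and 69.4% to 72.2% in MUT3. APOBEC3C followed in every clone, with 19.8% to 32.0% in WT6 and 14.7% to 18.9% in WT10. APOBEC3D, F and G came after it and kept no common order, with median levels per kb of 6.10, 5.45 and 10.9 in WT6, of 26.2, 7.76 and 10.2 in WT10 and of 36.6, 10.7 and 32.2 in MUT3. Over the doses, the range of APOBEC3B lay above that of APOBEC3C, and that of APOBEC3C above those of the other members, in each clone. The ranges of APOBEC3D and APOBEC3G overlapped in all 3 clones, and that of APOBEC3F overlapped APOBEC3D in WT6, APOBEC3G in WT10 and neither of them in MUT3. Over the doses the share of APOBEC3D in the family ran from 1.99% to 7.999% in WT6 and from 4.06% to 9.38% in WT10, with the highest share at 25 ng/ml in both. The summed level was 172 to 238 per kb in WT6, 409 to 498 in WT10 and 575 to 685 in MUT3.

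**Figure D3:**
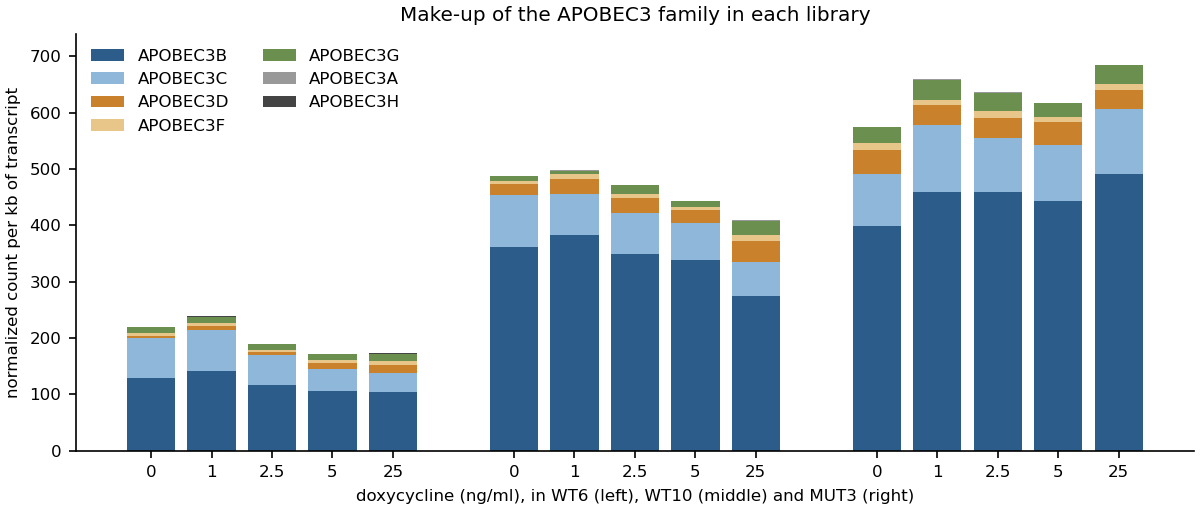
Stacked normalized counts per kb of transcript (y axis, linear, from 0) of the 7 APOBEC3 genes in each library, by doxycycline in ng/ml within WT6, WT10 and MUT3 (x axis). APOBEC3B is the largest part of every bar, the bars rise from WT6 to WT10 to MUT3, and APOBEC3A and APOBEC3H are too small to see.

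Lymphocytes and myeloid cells express several APOBEC3 genes. Of 8 markers of such cells, CD2, CD3E and MS4A1 were at 0 in every library. PTPRC, the pan-leukocyte antigen CD45, reached at most 6.18, in WT6, and the summed count of the 8 markers was 53.7 to 82.2 in WT6, 18.3 to 32.8 in WT10 and 27.5 to 39.9 in MUT3, most of it CD14. PTPRC was at 3.41 or more in every WT6 library, and CD3D, of the T cell receptor complex, was at 0.853 to 8.18 there and at 0 in every library of WT10 and MUT3. In WT6 the floor of 3 reads corresponded to normalized counts of 2.56 to 4.09. The cells were cultured single-cell clones of cancer lines, and the source of these marker reads was not tested.

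Of 3 relatives outside the cluster, APOBEC1 had 0 reads over the 15 libraries, APOBEC4 had 4 and APOBEC2 had 3 to 19 per library, so none was tested. For APOBEC1, a count of 0 allows up to 3 reads per library. Of 6 cofactors named for APOBEC1 editing 5 were tested, among them RBM47 itself (slopes 0.88 ± 0.23 in WT6 and 1.39 ± 0.25 in WT10, and 2.005 ± 0.30 in MUT3, where its adjusted p was 0.0517). Of the 5, 3 fell and 1 (RBM47) rose in WT6, and 1 fell and 1 (RBM47) rose in WT10. The shares of all genes were 28.3% falling and 29.2% rising in WT6, and 9.83% and 10.2% in WT10. KHSRP, which takes part in mRNA decay and splicing, fell in both wild type clones (-0.23 ± 0.026 and -0.15 ± 0.026), with adjusted p-values of 9.63e-06 and 0.00127.

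APOBEC3B transcription is known to be held down by the DREAM complex and taken up with the cell cycle by B-MYB (MYBL2), and to be raised by NF-kB. Of 18 genes of the DREAM and B-MYB complexes and the cell cycle, 12 fell and 1 (LIN37) rose in WT6, and 10 fell and 1 (LIN54) rose in WT10. Among all genes 28.3% fell and 29.2% rose in WT6, and 9.83% fell and 10.2% rose in WT10. The median slope of the 18 was -0.21 in WT6 and -0.12 in WT10, against 0.0053 and -0.0027 over all genes. BUB1, a kinase of the mitotic checkpoint, had the lowest p of the 18 in WT6 (-0.43 ± 0.037). MYBL2 fell in WT6 (-0.18 ± 0.022) and WT10 (-0.16 ± 0.022), as did FOXM1, a driver of mitotic genes (-0.23 ± 0.022 and -0.14 ± 0.022). A lower slope in WT10 than in MUT3 was called for 6 of the 18, MYBL2 and FOXM1 included, against 375 of all 12644 genes. Without the WT6 libraries at 5 and 25 ng/ml, 1 of the 18 fell and 1 rose in WT6. In that fit 182 of all 12644 genes passed in WT6, and none of the lists of other deaminases, uracil repair, interferon signalling, NF-kB and restriction factors held 1 of them. With length and GC trends removed, 14 of the 18 fell and 3 rose in WT6, and 11 fell and 2 rose in WT10, where 7102 and 4369 of all 12116 genes passed. Of the 5 NF-kB subunits, RELB rose in both wild type clones (0.35 ± 0.032 and 0.09 ± 0.028). NFKB2 rose and NFKB1 and REL fell in WT6, and no subunit differed in slope between WT10 and MUT3.

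Uracil left in DNA by these enzymes is removed by uracil glycosylases and their partners. Of 14 genes of uracil repair and bypass, 4 fell and 3 rose in WT6, and 3 fell and 0 rose in WT10. The shares of all genes were 28.3% falling and 29.2% rising in WT6, and 9.83% and 10.2% in WT10. The glycosylase UNG fell in both (-0.18 ± 0.034, adjusted p = 0.000588, and -0.16 ± 0.033, adjusted p = 0.00420), as did the DNA ligase LIG3 (-0.29 ± 0.044 and -0.19 ± 0.045). With length and GC trends removed, 7 fell and 0 rose in WT6, and 6 fell and 0 rose in WT10. In that fit 3821 of all 12116 genes fell and 3281 rose in WT6, and 2492 fell and 1877 rose in WT10. The differences of UNG and LIG3 from MUT3 did not pass (UNG adjusted p = 0.0759, LIG3 adjusted p = 0.0949).

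Of 10 tested genes of other nucleic acid and nucleotide deaminases, 4 rose and 3 fell in WT6, against 29.2% and 28.3% of all genes. CDA (0.39 ± 0.059), which deaminates free cytidine, ADA (0.29 ± 0.052), which deaminates adenosine, and DCTD (0.12 ± 0.021), which deaminates dCMP, rose there, and ADAR (-0.16 ± 0.032), which edits adenosine in double-stranded RNA, fell. In WT10 1 of them, AMPD3, rose (0.19 ± 0.038). Of 10 genes of interferon signalling, which induces several APOBEC3 genes, 4 rose and 3 fell in WT6, and 2 rose (IFNAR1 and IRF3) and 1 fell (TYK2) in WT10. Among all genes 10.2% rose and 9.83% fell in WT10. The transcription factors IRF9 (0.40 ± 0.050) and IRF7 (0.31 ± 0.038) led the list in WT6. With length and GC trends removed, 7 rose and 3 fell in WT6, and 5 rose and 1 fell in WT10. In that fit 3281 of all 12116 genes rose and 3821 fell in WT6, and 1877 rose and 2492 fell in WT10. Of 10 tested other restriction factors, 6 rose and 2 fell in WT6, against 29.2% and 28.3% of all genes. The 1 that rose in WT10 was BST2, which tethers budding viruses to the cell (0.15 ± 0.049), and SAMHD1, which depletes nucleotides, fell in WT6 (-0.38 ± 0.055). With length and GC trends removed, 4 of the 10 rose and 1 fell in WT6, and 3 rose and 0 fell in WT10. The counts of all genes in that fit are those given above.

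Of 12 genes flanking the cluster on 22q13.1, 10 were tested. In WT6, 5 fell and 2 rose, and in WT10, 2 fell and 0 rose. Of all genes, 28.3% fell and 29.2% rose in WT6, and 9.83% fell and 10.2% rose in WT10. SUN2, of the nuclear envelope, fell in both wild type clones (-0.39 ± 0.035 and -0.21 ± 0.034) and had a lower slope in WT10 than in MUT3 (-0.26 ± 0.047, adjusted p = 0.00861). In MUT3 none of all 12644 genes passed limma's test, RBM47 included (adjusted p = 0.0517). That no gene of these lists passed there therefore does not set them apart.

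**Figure D4:**
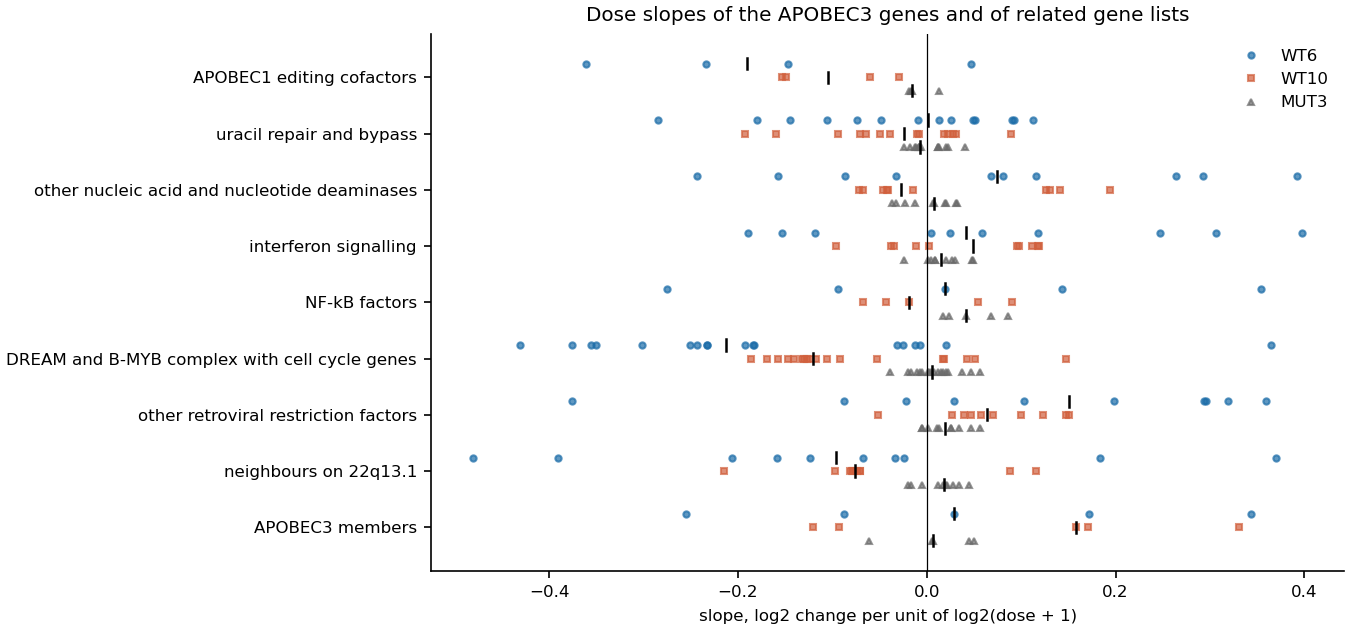
Slopes (x axis, log2 change per unit of log2(dose + 1)) of the tested genes of 8 related lists and of the 5 tested APOBEC3 members, with 1 point per gene for each clone and a black bar at the median; RBM47 itself is left out. Genes of the DREAM and B-MYB complexes and the cell cycle lie mostly below 0 in WT6 and WT10, whereas the MUT3 points of every list gather near 0.

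The members fell into opposite courses over the doses. After each clone's mean was subtracted, Pearson's r over the 15 libraries was 0.82 between APOBEC3B and APOBEC3C and 0.73 between APOBEC3D and APOBEC3F. It was -0.89 between APOBEC3C and APOBEC3D, which are neighbours, and -0.77 between APOBEC3B and APOBEC3D. The libraries share the dose series and the length trend of WT6, so these values are a description only. By the same measure the genes most like APOBEC3B were IWS1 (0.94), TNC (0.93) and ZNF362 (0.93), and those most like APOBEC3C were PRDM8 (0.95), TEX261 (0.94) and S1PR3 (0.94). Those most like APOBEC3D were ZDHHC24 (0.97), STX16 (0.96) and TMEM242 (0.96). For APOBEC3F they were TMEM175 (0.93), SEC14L2 (0.85) and MLPH (0.84), and for APOBEC3G they were ADRBK2 (0.92), PIK3IP1 (0.83) and PHTF1 (0.83).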

How the data were processed

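The authors aligned 75-base paired-end reads from polyA-selected RNA with STAR (hg19), used HTSeq 0.5.4 at default settings for gene counts and divided these by DESeq size factors. The deposited values are therefore a normalized signal (reads per size factor), not raw counts. Whole reads were recovered from 100% of the values (within 0.001 of a whole number) for counting intervals and as input of edgeR and DESeq2.

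Slopes and levels were fitted with limma 3.58.1 in R 4.3.3 on log2(normalized count + 1), with precision weights (vooma), a separate line against log2(dose + 1) in each clone, 9 residual degrees of freedom and 12644 genes with a mean of at least 10 in each clone. The adjusted p threshold was 0.05. The fit was tested on simulated data. Alternatives were edgeR 4.0.16, DESeq2 1.42.0, TMM scaling, pseudocounts of 0.5 and 5, no filter, no weights, other dose scales, removal of length and GC trends (splines with 4 degrees of freedom, 95.8% of genes with a length) leaving out libraries and libraries of the same dose as a block. Tables were handled in Python 3.11.15, and sequences came from hg19 with GENCODE release 44. The members and lists were chosen with earlier results of these data known. All 7 members are named, up to 4 genes per list by the lowest unadjusted p (others, such as LIN37, LIN54 and MYBL2 in WT6, were singled out after their values were seen), and the 3 genes most correlated with each member. The design foresaw edgeR for raw counts. These were not what was deposited, so limma was used. Of the lists, 2 genes are not reported here.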

Additional observations from a re-analysis of the deposited data

Results flagged for a closer look

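APOBEC3C, APOBEC3D and APOBEC3F were marked because every treated WT10 library lay on one side of its untreated library and every treated MUT3 library on the other. The treated libraries of a clone share 1 untreated library, so their signs are not independent of each other. APOBEC3C was below the untreated count in WT10 and above it in MUT3, with a difference of slopes, WT10 minus MUT3, of -0.17 (adjusted p = 0.126 in limma, 0.0399 to 0.844 over the alternatives). APOBEC3D was above it in WT10 and below it in MUT3, with a difference of 0.23 (adjusted p = 0.0560, 0.0196 to 0.928). APOBEC3F went the same ways as APOBEC3D, with a difference of 0.15 (adjusted p = 0.471, 0.293 to 0.978). None of the 3 differences passed limma's test as fitted, and the RBM47 count at 5 ng/ml differed between the clones (8134 in WT10, 949 in MUT3).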

How the results depend on the processing

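The count of members that passed depended on the setting for the slopes more than for the levels. With the log2 RBM47 count in place of the dose, 0 members passed in WT6 and 0 in WT10, and without the libraries at 25 ng/ml 1 passed in WT6 and 0 in WT10. With length and GC trends removed, 4 passed in WT6, 4 in WT10 and 2 differed between WT10 and MUT3, in a fit in which 7102, 4369 and 2255 of all 12116 genes did. Without WT6 at 5 and 25 ng/ml, an alternative chosen after seeing the data, 0 passed in WT6 and 3 differed between WT10 and MUT3 (182 and 3059 of all 12644 genes), and with DESeq2 1 differed. A Pearson correlation with the RBM47 count at p under 0.01 was met by 0 of 6 members in WT6, against 132 of 17766 genes. It was met by 1 of 6, APOBEC3B, in WT10 (2151 of 18363 genes) and by 0 of 6 in MUT3 (470 of 17798 genes). Leaving out 1 library at a time gave 1 to 2 members in WT6, 0 to 4 in WT10 and 0 to 2 for the difference between WT10 and MUT3. The slope of APOBEC3F in WT6 turned to -0.16 without WT6 at 5 and 25 ng/ml. That of APOBEC3G in WT6 was -0.090 with length and GC trends removed, -0.0043 without the libraries at 25 ng/ml and -0.0043 to 0.036 with 1 library left out. Its level difference between WT6 and WT10 was -0.25 to 0.0017 with 1 library left out. The cause of these shifts was not tested. With no filter on low values APOBEC3H, at 3 reads in all, was also called different between WT6 and WT10, which at this depth cannot be read as a change. The APOBEC3B and APOBEC3D level differences between WT6 and WT10, and those of APOBEC3B, C, D and G between WT10 and MUT3, passed under every alternative run, with 1 exception. With libraries of the same dose as a block, also chosen after seeing the data, 3 members differed between WT10 and MUT3 and APOBEC3D did not (adjusted p = 0.127). That fit has no slope per clone and was run for the levels only. No replicate number joins the libraries, since each clone and dose has 1.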
